A study of Mus musculus with 18 samples.

Results

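The comparison of the 2 BV2 lines after 24 h of oxyhemoglobin used 6 of the 18 RNA-seq libraries, chosen by their labels: 3 from the line labelled NC and 3 from the line labelled BAK1-KD. BV2 is an immortalized mouse microglial line. Both groups carried the same treatment, labelled 10 mM oxyhemoglobin for 24 h, and differed in the line label alone. The labels do not spell out NC or KD, do not say how the KD line was made or whether it is 1 clone, and give no untreated sample at 24 h. The other 12 libraries came from the same lines without treatment (called control, 0 h) and after 12 h. They place the 24 h values in time. They also entered the same fit, and so bear on the filter and the estimate of spread behind the 24 h tests. Whether the 3 libraries of a group are separate cultures is not in the labels, and p-values therefore reflect only how these libraries spread, which may be technical. The work's title puts the question as whether Bak1 bears on microglial necroptosis and inflammation after subarachnoid hemorrhage.

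Microglia are the resident macrophages of the brain, and they clear red cells and free hemoglobin after bleeding into the space around it. Hemoglobin and its heme can act on them as an oxidant and iron load and as an inflammatory stimulus, with interleukin-1 among the cytokines they release. BAK1, together with BAX, forms the pores in the outer mitochondrial membrane through which apoptosis proceeds. Necroptosis is a separate form of cell death, run by the kinases RIPK1 and RIPK3 and the membrane-breaking protein MLKL.

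The 6 libraries held 4361313 to 6008810 counts each. Between 14.2 and 25.3% of them fell on 1 gene, CT010467.2, and 0.83 to 2.12% on the mitochondrial genome. In a principal component analysis the first component, with 30% of the variance, separated the lines, while the second, with 25.5%, set the library numbered 2 of both groups (scores of -40 and -29.8) apart from the other 4 (3.3 to 29.8). These 2 libraries also had the highest share of counts in long intergenic and unverified transcripts, 5.80 and 5.77% against 3.77 to 4.52%. At control and 12 h, too, the library numbered 2 had the highest share in both lines, 5.25 to 5.88% against 3.43 to 4.32%. Markers of microglia and macrophages were present in every library, with a summed level of 6763 to 8877 CPM (counts scaled to the library's size) in NC and 8207 to 10085 CPM in KD, and none of the 14 tested passed the threshold between the lines. The homeostatic markers C1qa and P2ry12 were at or near 0 in all 6 libraries, and the globin genes and the neuronal genes Rbfox3, Snap25 and Syt1 were at 0. Because RNA was taken from whole cultures, fewer cells of a type and less RNA per cell cannot be told apart.

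Bak1 itself was barely detected. Its counts were 1, 0 and 5 in the NC libraries and 12, 2 and 2 in the KD libraries, which is 0.391 ± 0.476 CPM against 0.999 ± 0.956 CPM (SD, n = 3). The groups overlapped, and the KD total was the higher one. The ratio of count rates was 2.67, with a 95% exact interval of 0.991 to 8.32 that covers counting error only. An exact two-sided permutation test over the 20 arrangements gave a log2 difference of 0.71 with p = 0.4, where 3 against 3 libraries cannot go below 0.1. Bak1 (ENSMUSG00000057789, chr17:27019810-27029009 on the minus strand, GRCm38) shares part of its exons with Ggnbp1 on the other strand, and its level was too low for the test across genes. Its level thus gave no check on the line labels, and KD below means a library labelled KD.

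Across 15996 tested genes, 223 (1.39%) differed between the lines at 24 h at an adjusted p below 0.05 by the quasi-likelihood test of edgeR, adjusted by Benjamini and Hochberg's method. Of these, 148 (0.925% of genes tested) were lower in KD and 75 (0.469%) were higher. At least a 2-fold change was found for 92 of the lower and 38 of the higher genes. The 3 KD and 3 NC libraries did not overlap in CPM for any of the 223, and 17.2% of all tested genes had groups that did not overlap. Called genes changed by at least 0.51 on the log2 scale, with a median size of 1.14, and the median over all tested genes was -0.002. The split between directions rested on the scale and on the model. Tested with limma on log2(TPM + 1), log2(TPM + 0.1) and log2(TPM + 1) without a filter, 107, 104 and 137 genes passed and 69.2, 67.3 and 62.8% of them were higher in KD, against 33.6% in the counts. The median over all genes was 0.092, 0.113 and 0.072 on those scales, so a TPM change counts relative to that shift. In the counts with the library number added as a block, 1440 genes passed, 47.9% of them higher and 52.1% lower in KD. The number of calls also rested on single libraries: leaving out 1 library at a time gave 41 calls (without KD library 3), 69 (KD library 1), 90 (KD library 2), 97 (NC library 2), 121 (NC library 1) and 131 (NC library 3). Without both libraries numbered 2, 34 genes passed, of which 32 were among the 223. Of the 48 called genes that the naming rule picked, 14 kept the call without each library in turn and 15 without both libraries numbered 2, while 17 lost it on all 3 TPM scales and 17 on none that tested them. Those lost on all 3 TPM scales included Il1a, Il1b, Csf1, Abca1, Mylip, Plin2, Slc40a1, Msr1, Colec12, Bcl2a1d, Rrm2b and Gadd45a. At an unadjusted p below 0.05 stood 1954 genes (12.2%).

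**Figure D1:**
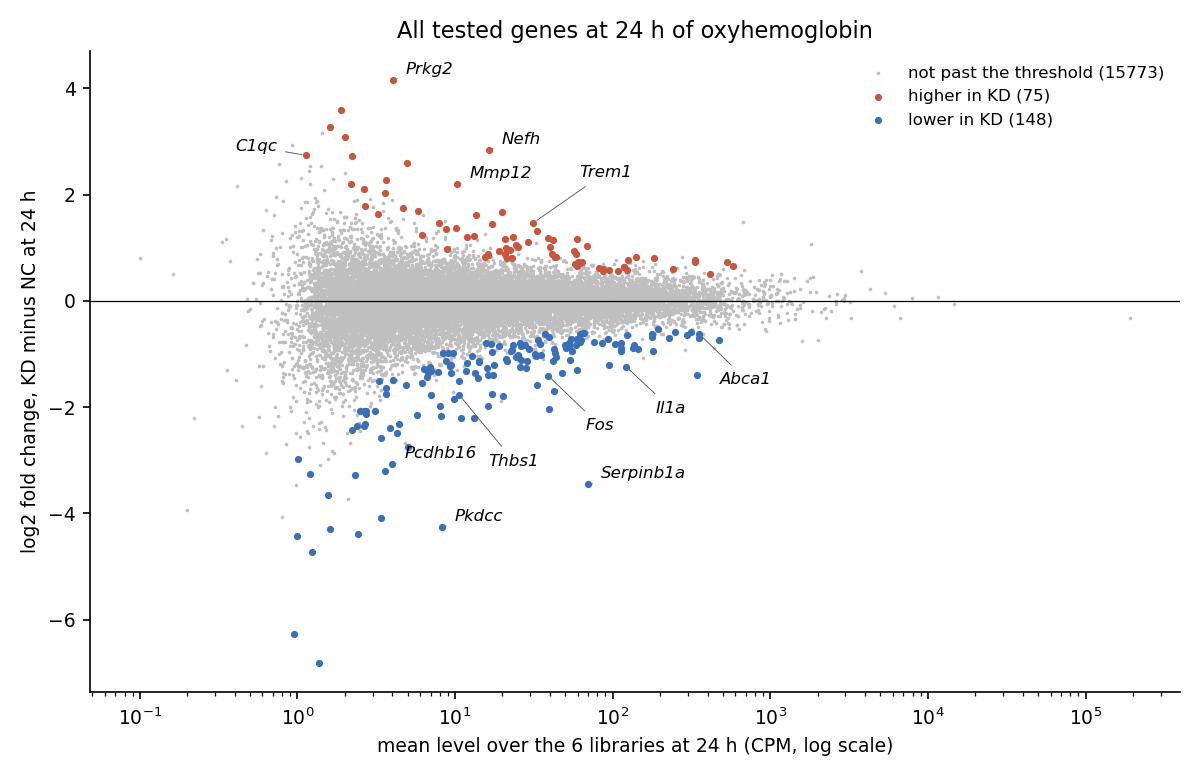
Each point is 1 tested gene, with its mean level over the 6 libraries at 24 h (CPM, log scale) on the horizontal axis and the log2 fold change, KD minus NC, on the vertical axis. Red points are the 75 genes higher in KD, blue points the 148 lower, and the lowest 2 points are Ctdspl and Ddah1, whose fitted values rest on KD counts of 0.

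The gene with the lowest p at 24 h was Serpinb1a, an inhibitor of neutrophil-type serine proteases (ENSMUSG00000044734, chr13:32842092-32851185, minus strand). It stood at 120.6, 116 and 148 CPM in the NC libraries and at 13, 11.1 and 11 CPM in the KD libraries. The libraries of each line lay close together and the lines far apart, a log2 change of -3.45 ± 0.22 (SE; adjusted p = 2.84e-09, edgeR). Pkdcc, a secreted tyrosine kinase, was at 16.2, 15.6 and 15.7 CPM in NC and at 1.58, 0.418 and 0.238 CPM in KD. Its change was -4.26 ± 0.44 (adjusted p = 6.49e-06), and the KD libraries had 9, 2 and 1 counts. Thbs1, which encodes the matrix glycoprotein thrombospondin-1, was at 16.7, 13.9 and 18.8 CPM in NC against 5.25, 4.60 and 4.53 CPM in KD, a change of -1.77 ± 0.26 (adjusted p = 8.1e-04). Ankdd1a, an ankyrin-repeat gene, fell by 2.21 ± 0.29 on the log2 scale (adjusted p = 2.62e-04) from 19.5, 22 and 12.9 CPM in NC to 4.90, 3.98 and 2.62 CPM in KD. Tln2, which links integrins to actin, fell by 3.20 ± 0.49 (adjusted p = 0.00151), with 0.35 to 0.953 CPM in KD. These 5 calls held without each of the 6 libraries in turn, but that of Tln2 was lost on log2(TPM + 1) without a filter (-0.24, adjusted p = 0.0588). In Ctdspl, a phosphatase gene, 41 counts in the NC libraries faced 0 in KD, at least 13.7-fold lower, and in Ddah1, which breaks down inhibitors of nitric oxide synthase, 27 faced 0, at least 9-fold lower (3 counts over the group taken as the floor). In Vnn3, a pantetheinase gene, 68 counts faced 3, a ratio of 22.7 (95% exact interval 7.43 to 112.6, which covers counting error only).

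Among the clustered beta-protocadherins, cell-surface adhesion proteins best known for giving neurons their identity, a run of neighbours fell. All 5 tested members, Pcdhb16 to Pcdhb20, passed the threshold and were lower in KD. Their KD levels were low at all times, so they passed the filter on low counts mainly through the NC libraries. Members low in both lines were not tested, and their number was not worked out. That all tested members were called thus rests in part on the filter and does not describe the family. Pcdhb16 was at 7.35, 7.72 and 6.26 CPM in NC and at 0.701, 0.209 and 1.67 CPM in KD, a change of -3.07 ± 0.43 (adjusted p = 4.94e-04, edgeR). Pcdhb17 fell by 2.42 on the log2 scale (adjusted p = 0.0205). Pcdhb18, Pcdhb19 and Pcdhb20 had 47, 41 and 29 counts in NC against 2, 3 and 1 in KD. None of the 7 tested gamma-protocadherins passed, although all 7 changes were negative, from -2.48 for Pcdhga8 to -0.26 for Pcdhgb7. These genes are close copies of one another, and the sources used here do not state how reads matching several of them were counted, so the split among them is uncertain.

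Among the genes higher in KD, Prkg2, a cGMP-dependent protein kinase, had the largest change of those with at least 5 CPM in the higher group, 4.16 ± 0.52 (adjusted p = 1.87e-04). It was at 0.253, 0.377 and 0.552 CPM in NC and at 7.18, 7.11 and 8.81 CPM in KD. Nefh, the heavy neurofilament subunit, was at 2.03, 3.95 and 5.71 CPM in NC and at 30.3, 29.9 and 26.2 CPM in KD, a change of 2.84 ± 0.28 (adjusted p = 4.61e-06). Mmp12, the macrophage elastase, rose from 3.04, 4.14 and 3.68 CPM to 15.8, 16.9 and 18.1 CPM (2.2 ± 0.30, adjusted p = 4.55e-04). The KD libraries of all 3 genes lay well above every NC library. Tfcp2l1, a transcription factor best known from pluripotent cells, was at 10.9, 9.60 and 8.29 CPM in NC and at 36.4, 29.1 and 25.5 CPM in KD (1.67 ± 0.24, adjusted p = 7.71e-04). Trem1, a receptor that amplifies inflammatory signalling in myeloid cells, was at 17.0, 14.1 and 18.8 CPM in NC and at 49.9, 30.5 and 58.1 CPM in KD (1.47 ± 0.26, adjusted p = 0.00591). In KD the library numbered 2 was the lowest for Trem1 but still above every NC library. Smpd3, a neutral sphingomyelinase, rose by 1.62 ± 0.29 (adjusted p = 0.0072). These 6 calls held without each library in turn. The Mmp12 call was lost on 2 of the 3 TPM scales (adjusted p up to 0.0744), and the Smpd3 call without both libraries numbered 2 (0.0835).

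The naming rule also picked 16 called genes that are mostly pseudogenes, noncoding or little-studied transcripts at low levels. The 10 lower in KD ran from 2900052L18Rik (-4.09 ± 0.73, adjusted p = 0.00664), with 8.86, 5.46 and 4.79 CPM in NC against 0, 0 and 1.19 CPM in KD, to Sag, the retinal arrestin (-2.07 ± 0.49, adjusted p = 0.0328). Among them Itih5, which encodes a hyaluronan-binding inhibitor chain, was at 11.9, 13.4 and 14.9 CPM in NC and at 3.85, 2.30 and 2.62 CPM in KD (-2.17 ± 0.39, adjusted p = 0.0072). The other 7 were Gm19410, Best4-ps, Gm49253, Rpl10a-ps3, Gm47268, Gm36913 and 9830132P13Rik. The 6 higher in KD ran from Gm45777 (1.35) to the serine protease gene Prss22 (2.60 ± 0.55, adjusted p = 0.0184), with Hao1, a glycolate oxidase (1.37), Gm13238, Gm45879 and the glutathione transferase gene Gstm2 (2.03) between them. Of the 16 calls, that of 2900052L18Rik alone held without each library in turn, and it was lost without both libraries numbered 2.

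Tubb3, a tubulin isotype on the list of neuron markers, was at 1.52, 1.13 and 1.10 CPM in NC and at 6.48, 3.14 and 8.58 CPM in KD (2.27 ± 0.48, adjusted p = 0.0179). L1cam, an adhesion molecule that is not on the list, rose by 1.74 ± 0.33 (adjusted p = 0.00872). The Tubb3 call was lost without KD library 1 or 3 or NC library 2 or 3 (adjusted p = 0.0674 to 0.0967), and the L1cam call without KD library 3 (0.052), without both libraries numbered 2 (0.111) and on log2(TPM + 1) without a filter (0.46, adjusted p = 0.118). Of the 10 neuron markers listed, Tubb3 was the only one tested and 8 were at 0 in all 6 libraries: Rbfox3, Snap25, Syt1, Map2, Stmn2, Nefl, Nefm and Elavl4. The summed level of the list was 1.29 to 3.80 CPM in NC and 4.18 to 8.58 CPM in KD.

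**Figure D2:**
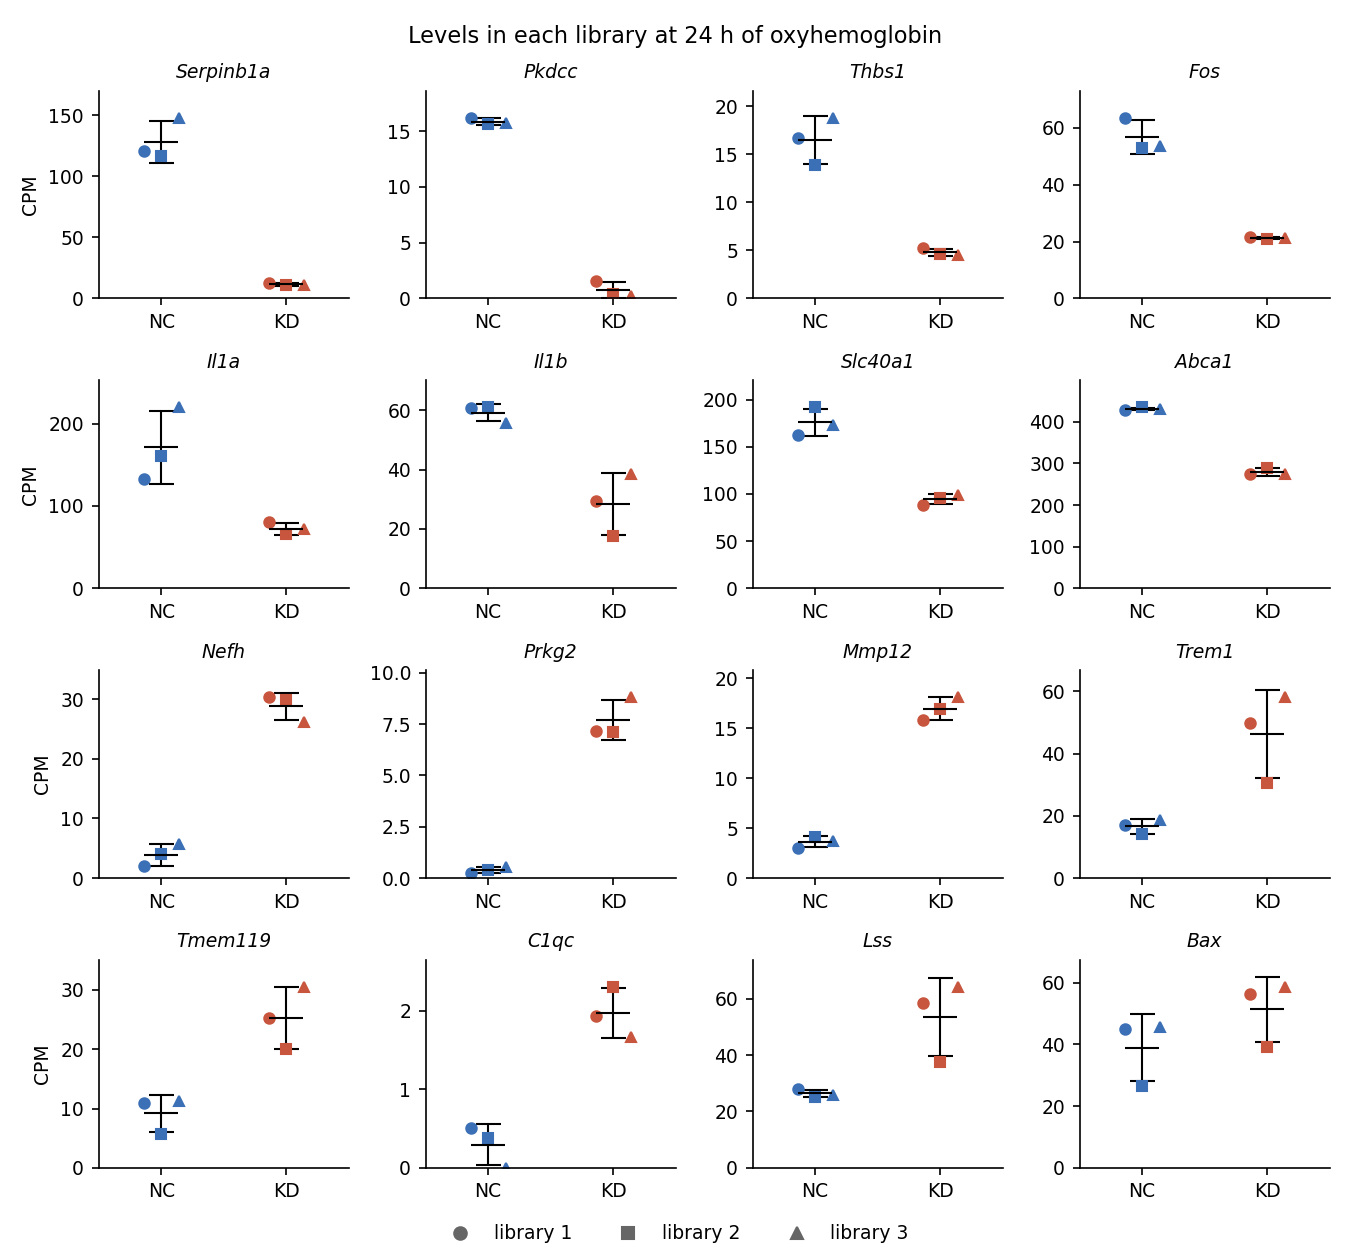
Levels of 16 genes in each library at 24 h (CPM, linear axes from 0), with circles, squares and triangles for the libraries numbered 1, 2 and 3 and the bar and whiskers for the mean ± SD of 3. Serpinb1a, Pkdcc, Thbs1, Fos, Il1a, Il1b, Slc40a1 and Abca1 lie lower in KD without overlap, Nefh, Prkg2, Mmp12, Trem1, Tmem119, C1qc and Lss lie higher, and the groups overlap for Bax.

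Both interleukin-1 ligands were lower in KD at 24 h. Il1a was at 133, 160.6 and 220 CPM in the NC libraries and at 80.0, 65.7 and 71.7 CPM in the KD libraries, a log2 change of -1.24 ± 0.23 (adjusted p = 0.00809, edgeR). Il1b was at 60.8, 61.0 and 55.8 CPM in NC and at 29.4, 17.6 and 38.4 CPM in KD, a change of -1.06 ± 0.25 (adjusted p = 0.0369). The groups did not overlap for either gene, although Il1a spread widely in NC and Il1b in KD. At control both genes were low in both lines (at most 2.86 CPM on average). At 12 h the means were 503 CPM for Il1a and 284.8 CPM for Il1b in NC, and 396 and 248 CPM in KD, where the line difference did not pass (adjusted p = 0.569 and 0.8). The interactions of line with time for the 2 genes did not pass either, so the 24 h difference was not shown to differ from that at 12 h. The Il1a call was lost without KD library 3 (adjusted p = 0.052). The Il1b call was lost without any 1 of the others (0.0713 to 0.165), and both were lost on the 3 TPM scales (0.123 to 0.514), where the changes were -1.10 to -0.98. The exons of Il1a share 11.2% of their bases with Gm14023, and the sources used here do not state whether strand was used in counting; the same holds for Gadd45a (19.1%, E230016M11Rik), and Bax shares 12.2% with Gm45808 on its own strand.

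Of 20 tested inflammatory mediators, Il1a and Il1b were the 2 that passed, 3 had a positive change, and the median log2 change was -0.42 against -0.002 over all genes. The share of all tested genes that passed was 1.39%, with 0.925% called lower in KD. Ptgs2, the inducible cyclooxygenase, was at 399, 433 and 536 CPM in NC and at 274, 319 and 293 CPM in KD without overlap. Its change of -0.63 ± 0.16 did not pass (adjusted p = 0.0566), but did with upper-quartile factors, a filter of 5 CPM and DESeq2. Ptgs2 was lower in KD past the threshold at control (-1.08, adjusted p = 8.52e-04, edgeR) and at 12 h (-0.78, adjusted p = 0.013). Il6 was at 12.2, 16.8 and 19.3 CPM in NC and at 9.28, 7.32 and 10.5 CPM in KD (-0.84 ± 0.27, adjusted p = 0.146). Its line difference passed at 12 h (-1.12, adjusted p = 0.0226) and not at control (-2.70, adjusted p = 0.0693). Tnf (-0.36), Csf3 (-0.40), Ccl2 (-0.05), Ccl5 (-0.41) and Nos2 (-0.59) had groups that overlapped, with adjusted p from 0.333 to 0.975. None of 17 chemokines and their receptors (median -0.19) and none of 17 NF-kB subunits and targets (median -0.34) passed. None of 30 interferon-response genes passed either, with a median of 0.22. Of 13 tested inflammasome genes Il1b alone passed, and Nlrp3, the sensor, Casp1, the protease that matures IL-1beta, and Gsdmd, the pore-forming protein, had changes of -0.10, 0.06 and 0.34. Csf1, the growth factor for microglia, was at 27.1, 16.9 and 21.2 CPM in NC and at 10.9, 14.2 and 11.9 CPM in KD. Its change of -0.81 ± 0.21 stood at the threshold (adjusted p = 0.0498) and was lost without any 1 library except NC library 2 (0.0755 to 0.213).

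**Figure D3:**
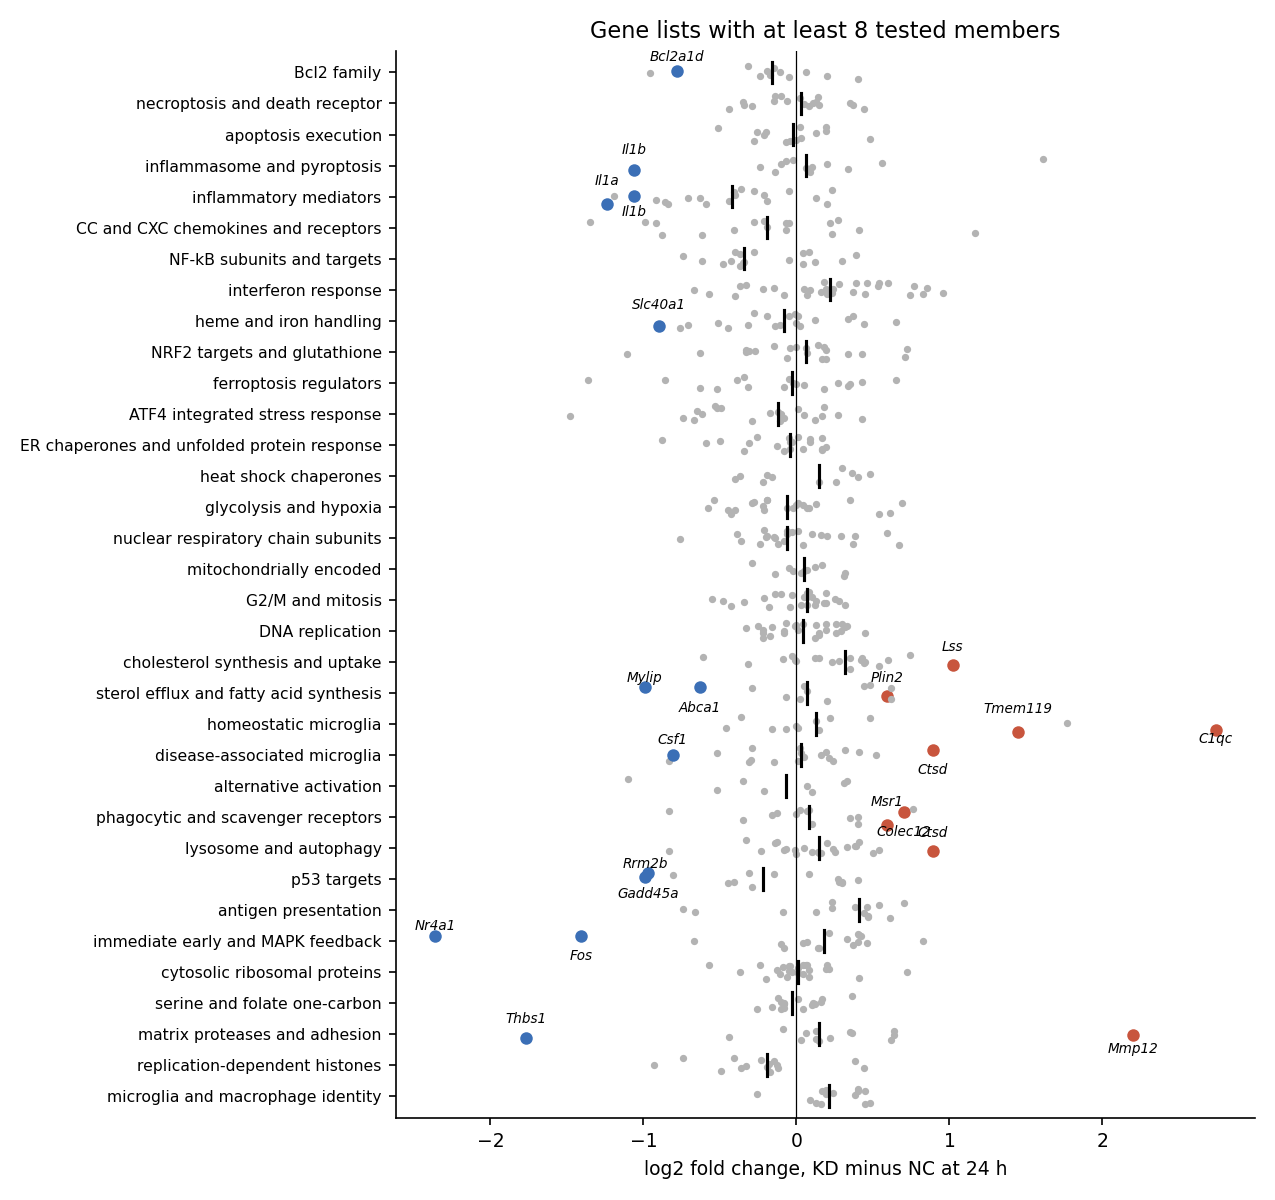
Log2 fold change, KD minus NC at 24 h, of every tested member of the gene lists with at least 8 tested members, 1 row per list. Grey points did not pass the threshold, larger blue and red points were lower or higher in KD, and black ticks mark list medians, which run from -0.42 for inflammatory mediators to 0.41 for antigen presentation.

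Of 18 immediate early and MAPK feedback genes tested, 2 passed, and both were lower in KD, beside 0.925% of all tested genes called lower. Fos, a subunit of the AP-1 transcription factor, was at 63.6, 52.9 and 53.6 CPM in NC and at 21.7, 20.9 and 21.2 CPM in KD. The KD libraries were nearly equal, and the change of -1.41 ± 0.22 (adjusted p = 0.00182) held under all 17 alternatives run. Nr4a1, an orphan nuclear receptor, was at 6.08, 3.39 and 2.58 CPM in NC and at 0.701, 1.05 and 0.476 CPM in KD (-2.36 ± 0.55, adjusted p = 0.0294). That call was lost without any 1 library except NC library 3 (0.0647 to 0.14). The median of the list was 0.18, on the other side of 0: Jun was at 0.41, Junb at -0.08, Fosl2 at 0.40 and Dusp6, which dephosphorylates ERK, at 0.83, none of which passed. The promoters of Fos and Nr4a1 are shown because these 2 members moved together, while most of their list did not pass. The 250 bases before each start come from RefSeq (GRCm38.p6), chr12:85473640-85473889 on the plus strand for Fos and chr15:101266596-101266845 on the plus strand for Nr4a1, whose RefSeq start lies inside the longer gene model of GENCODE. Capitals mark TGACG or its reverse complement CGTCA, the half-site of the cAMP response element, which CREB and ATF proteins bind:
Fos: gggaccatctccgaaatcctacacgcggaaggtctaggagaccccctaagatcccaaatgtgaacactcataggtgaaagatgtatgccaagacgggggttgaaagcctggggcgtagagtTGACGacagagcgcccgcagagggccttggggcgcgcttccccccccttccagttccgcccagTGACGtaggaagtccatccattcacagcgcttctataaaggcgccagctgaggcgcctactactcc
Nr4a1: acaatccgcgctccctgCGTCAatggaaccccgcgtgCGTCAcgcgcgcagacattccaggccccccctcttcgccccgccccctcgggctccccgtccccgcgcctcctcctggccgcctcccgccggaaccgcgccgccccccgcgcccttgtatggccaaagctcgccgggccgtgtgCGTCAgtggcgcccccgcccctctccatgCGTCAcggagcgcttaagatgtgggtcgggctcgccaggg
Fos has 2 such matches, 129 and 66 bases before the start, and Nr4a1 has 4, at 233, 213, 69 and 40 bases. The letters occur at least once, on either strand, in 17.8% of 32851 RefSeq promoter windows of this length, at least 2 times in 3.9% and at least 4 times in 0.137%. A match describes the letters only.

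In the homeostatic microglial, scavenger receptor and lysosome lists, the few genes that passed the threshold were all higher in KD, but most members did not pass. The list medians were 0.13, 0.08 and 0.15. Changes were positive in 8 of 13, 10 of 15 and 15 of 24 members, and the lowest were -0.46, -0.83 and -0.83. Of all tested genes 1.39% passed and 0.469% were called higher in KD. No list was tested as a set. Of 13 tested homeostatic genes, Tmem119 and C1qc passed, both higher in KD. Tmem119, a surface protein used to mark microglia, was at 10.9, 5.65 and 11.2 CPM in NC and at 25.2, 20.1 and 30.5 CPM in KD (1.45 ± 0.33, adjusted p = 0.0257). C1qc, a subunit of the complement starter C1q, had only 4 counts in NC against 29 in KD, or 0.507, 0.377 and 0 CPM against 1.93, 2.30 and 1.67 CPM (2.74 ± 0.64, adjusted p = 0.0294). C1qb, its partner subunit, was at 1.01, 0.941 and 2.03 CPM in NC and at 3.68, 4.81 and 5.72 CPM in KD without passing (1.77 ± 0.47, adjusted p = 0.0583). C1qc averaged 50.4 CPM in KD and 3.06 CPM in NC at control, and 10.9 and 1.17 CPM at 12 h. Its line difference passed at both times (4.07, adjusted p = 2.58e-07, and 3.17, adjusted p = 1.39e-04, edgeR). The C1qc difference at 24 h lay between low levels. The Tmem119 call was lost without KD library 1 or 3 or NC library 1 or 2 (0.0545 to 0.122), and the C1qc call without any 1 library (0.0505 to 0.119). Trem2 (0.01) and Cx3cr1 (-0.07) did not pass.

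Of 15 phagocytic and scavenger receptors, Msr1 and Colec12 were higher in KD. Msr1, which takes up modified lipoproteins, was at 190.2, 183 and 208 CPM in NC and at 289.5, 267 and 321 CPM in KD (0.59 ± 0.14, adjusted p = 0.0381). Colec12, a collectin scavenger receptor, rose by 0.70 ± 0.17 (adjusted p = 0.0416). In the lysosome list 1 of 24 passed, the protease gene Ctsd, at 15.2, 12.6 and 16 CPM in NC and 29.4, 23.4 and 28.3 CPM in KD (0.89 ± 0.22, adjusted p = 0.0438). Of its exon bases 34.4% are shared with Gm49369 on the same strand, so its counts are uncertain. The calls of Msr1 and Ctsd were lost without any 1 library (0.0622 to 0.195), and that of Colec12 without any 1 except NC library 2 (0.0792 to 0.165). Msr1 was also higher in KD at control (1.23, adjusted p = 3.28e-05, edgeR) and at 12 h (1.10, adjusted p = 2.47e-04). Ctsd and Colec12 did not pass at either time.

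Of 13 genes of sterol efflux and fatty acid synthesis, Abca1 and Mylip were lower in KD and Plin2 was higher. Among all tested genes, 0.925% were called lower in KD and 0.469% higher. Abca1, which exports cholesterol from macrophages, was at 428.5, 434 and 430.3 CPM in NC and at 273, 289 and 275 CPM in KD. Its change of -0.63 ± 0.12 (adjusted p = 0.0125) was small, with libraries that lay close together in both lines, and the call was lost without KD library 1 or 3 (0.0644 and 0.0648), without both libraries numbered 2 (0.112), with no filter, in the compared groups alone and on all 3 TPM scales (0.223 to 0.254). At control Abca1 did not differ past the threshold (0.06, adjusted p = 0.923), and at 12 h it was lower in KD (-0.60, adjusted p = 0.0123). Slc40a1, ferroportin, the only known exporter of cellular iron, was at 163, 192 and 173 CPM in NC and at 88.4, 96.0 and 99.1 CPM in KD (-0.90 ± 0.16, adjusted p = 0.00735), a call lost without KD library 1 (0.0503), without both libraries numbered 2 (0.101) and on all 3 TPM scales (0.187 to 0.219). It was the only 1 of 20 heme and iron genes to pass. Hmox1, heme oxygenase-1, was at 1852, 1492 and 2649 CPM in NC and at 1510, 934 and 1102 CPM in KD, with overlap (-0.76 ± 0.26, adjusted p = 0.19). The ferritin chains Ftl1 and Fth1 had changes of -0.32 and 0.02. Mylip, a ubiquitin ligase gene, fell by 0.99 ± 0.23 (adjusted p = 0.0336), and Plin2, which coats lipid droplets, rose by 0.59 ± 0.14 (adjusted p = 0.0382). Both of these calls were lost without any 1 library (0.0612 to 0.156).

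Of 20 genes of cholesterol synthesis and uptake, Lss, lanosterol synthase, passed, beside 1.39% of all tested genes. It was at 27.9, 25.2 and 26.0 CPM in NC and at 58.5, 37.7 and 64.1 CPM in KD (1.02 ± 0.22, adjusted p = 0.0184), a call lost without KD library 1 or 3 or NC library 2 or 3 (0.0612 to 0.102). The list's median was 0.32, and Sqle, squalene epoxidase, had groups that did not overlap but did not pass (0.54 ± 0.21, adjusted p = 0.253).

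Calls in the death pathway and p53 lists are given here beside the 1.39% of all tested genes that passed. None of 18 tested necroptosis and death-receptor genes passed, none had an unadjusted p below 0.05 (12.2% of all genes did), and their median was 0.03. Ripk1 was at 31.7, 33.0 and 40.9 CPM in NC and at 40.3, 30.3 and 38.4 CPM in KD (0.05 ± 0.17, adjusted p = 0.96). Mlkl, the executor, was at 2.03, 3.39 and 2.39 CPM in NC and at 1.58, 2.30 and 2.62 CPM in KD (-0.29 ± 0.46, adjusted p = 0.88). The groups overlapped for both. Ripk3 and the nucleic-acid sensor Zbp1 were too low to test, with 0 counts in most of the 6 libraries, so no difference in them was detectable at this depth. Of 12 tested Bcl2 family genes, only Bcl2a1d passed, a pro-survival member at 64.3, 76.6 and 93.4 CPM in NC and 44.0, 36.0 and 57.2 CPM in KD (-0.78 ± 0.20, adjusted p = 0.046). It has near-identical copies, and its call was lost without any 1 library except NC library 1 (0.052 to 0.212). Bax, which acts beside BAK1, was at 45.1, 26.4 and 45.5 CPM in NC and at 56.4, 39.3 and 58.6 CPM in KD (0.40 ± 0.28, adjusted p = 0.639). Mcl1 (-0.32), Bcl2 (-0.11) and Bcl2l1 (0.20), which restrain BAX and BAK1, did not pass. None of 14 apoptosis execution genes passed. Of 14 p53 targets, Rrm2b, a ribonucleotide reductase subunit, fell by 0.99 ± 0.18 (adjusted p = 0.00751), and Gadd45a, a growth arrest gene, fell by 0.97 ± 0.24 (adjusted p = 0.0378). The Rrm2b call was lost without KD library 3 (0.0638) and on all 3 TPM scales (0.199 to 0.239), and the Gadd45a call without any 1 library (0.0683 to 0.173) and on all 3 TPM scales (0.116 to 0.147).

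No member passed in the lists for NRF2 targets (21 tested), ferroptosis (18), ATF4 targets (22), ER chaperones (20), heat shock (11), glycolysis (23), nuclear respiratory chain subunits (24), mitochondrially encoded genes (11), G2/M (25), DNA replication (27), antigen presentation (14), alternative activation (8), serine and folate enzymes (16), ribosomal proteins (25) and histones (15). Slc7a11, the cystine importer, had a change of 0.43 ± 0.21 (adjusted p = 0.422) and Phgdh, the first enzyme of serine synthesis, one of -0.10 ± 0.19 (adjusted p = 0.899). Markers of astrocytes, oligodendrocytes, fibroblasts and endothelium, few of which could be tested, gave no call.

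The 24 h differences were also present, in part, at the other times. The lines differed in 330 genes (2.06%) at control and in 256 (1.6%) at 12 h, in comparisons that share no library with the one at 24 h. Of the 223 genes called at 24 h, 85 were called in the same direction at control (38.1% of the 24 h calls and 25.8% of the control calls) and 83 at 12 h (37.2% and 32.4%). Called at all 3 times in the same direction were 57 genes, 19 higher and 38 lower in KD, among them Serpinb1a, Pkdcc, Nefh, Thbs1, Fos and Mmp12. Another 112 genes were called at 24 h only, and 92 of these had the same sign at both other times. Fos averaged 73.4, 71.4 and 56.7 CPM in NC at control, 12 h and 24 h, and 17.4, 13.8 and 21.3 CPM in KD. Mmp12 averaged 52.8, 14 and 16.9 CPM in KD at these times against 3.62 to 6.15 CPM in NC. Tfcp2l1 was low in both lines at control (1.68 and 2.22 CPM), and the line difference passed at 12 h (1.34, adjusted p = 0.00375) as it did at 24 h. Plin2 had line differences of -0.01 at control and -0.02 at 12 h, but its interactions with time did not pass.

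**Figure D4:**
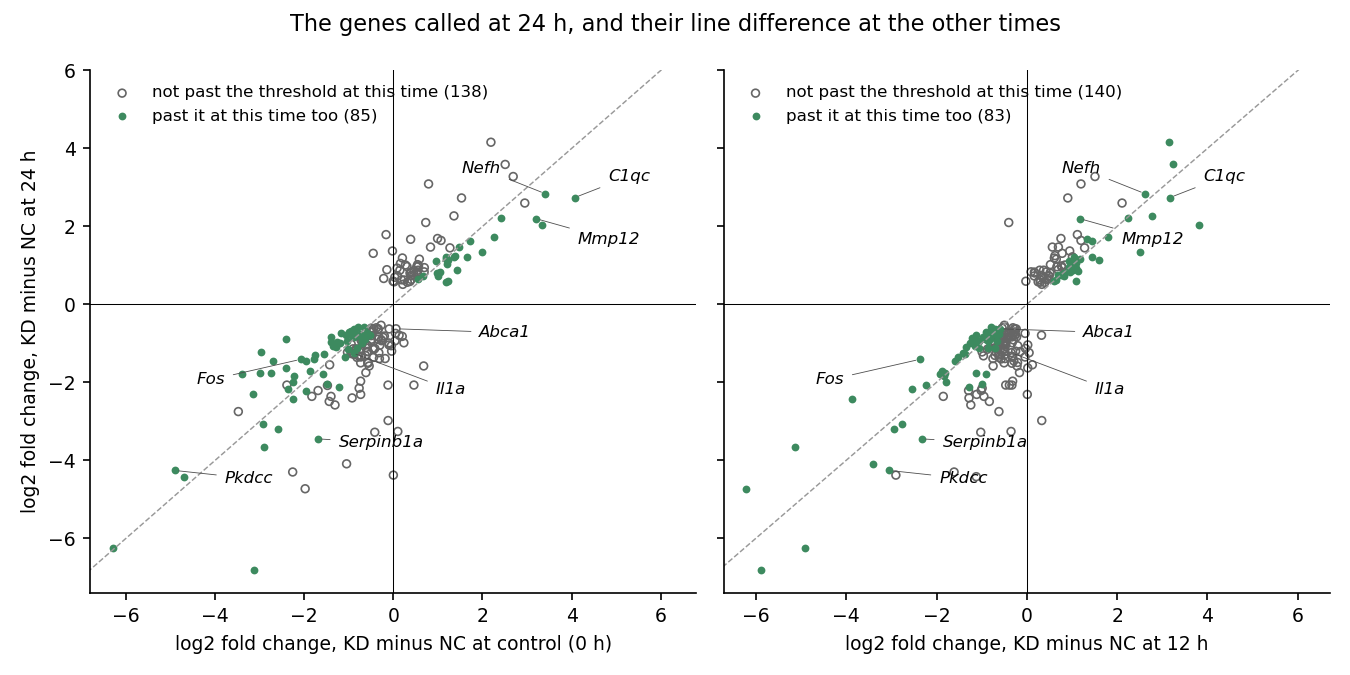
The 223 genes called at 24 h, with the log2 fold change, KD minus NC, at 24 h on the vertical axis and at control (left) or 12 h (right) on the horizontal axis; the dashed line marks equal values. Filled points, 85 on the left and 83 on the right, passed at that time too, and 207 and 214 of the 223 have the same sign as at 24 h.

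A direct test of the change in the line difference passed for 5 genes (0.0313%) between control and 24 h and for 1 gene (0.00625%) between 12 h and 24 h. Unadjusted p-values were below 0.05 for 740 and 626 genes. Of the 6 genes past the adjusted threshold, Serpinb1a was the only 1 among the 223. It averaged 260.1, 133 and 128 CPM in NC at control, 12 h and 24 h and 79.9, 26.4 and 11.7 CPM in KD, so the line difference grew by 1.75 ± 0.29 in size on the log2 scale (interaction -1.75, adjusted p = 0.0186). That interaction was lost without any 1 of the 3 KD libraries at 24 h, NC library 3 at 24 h or NC library 3 at control (0.0506 to 0.0829), and on all 3 TPM scales (0.0569 to 0.0686).

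The called genes were not spread evenly over the chromosomes, described here without a test. Chromosome 13 held 660 tested genes, of which 19 (2.88%) were called, all lower in KD. The change was negative for 74.5% of its genes, against 50.3% of all, with a median of -0.211. The median of its genes was 0.099, 0.172 and 0.097 in the NC libraries and -0.123, -0.052 and -0.120 in the KD libraries, as log2 CPM relative to the mean of the 6, without overlap. Chromosome 9 held 895 tested genes, with 19 lower and 2 higher calls (2.35%), 67.6% negative changes and a median of -0.165. Chromosome 16 went the other way, with 4 higher calls and 1 lower among 510 genes (0.98%), 32.7% negative changes and a median of 0.154. The NC and KD libraries did not overlap for these chromosomes either (0.077 to 0.121 against -0.087 to -0.049 on chromosome 9, and -0.064 to -0.050 against 0.070 to 0.107 on chromosome 16). On each of the other chromosomes the median lay between -0.066 and 0.060, although chromosomes 18 and 19 also had many calls (2.75 and 2.29%), on chromosome 18 with the 5 beta-protocadherins among 8 lower genes.

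These shifts were spread over most of the 3 chromosomes and had the same sign at the other times. In windows of 10 Mb with at least 20 tested genes, the medians on chromosome 13 were all negative (-0.381 to -0.065) and those on chromosome 16 all positive (0.031 to 0.197). On chromosome 9 they were -0.043 to 0 before 40 Mb and -0.273 to -0.131 from there on. Libraries of the lines did not overlap, with 1 sign at all 3 times, in 20 of the 32 windows on these chromosomes (62.5%) and in 15 of the 196 on the others (7.65%). The 3 chromosomes were singled out by their shifts in these same 24 h libraries. The larger share there follows in part from that choice and is a description only. Window medians ran from -0.291 to 0.245 elsewhere and from -0.381 to 0.197 on these 3 chromosomes. A shifted window elsewhere was the one from 150 to 160 Mb on chromosome 4, with -0.266 at 24 h, -0.318 at control and -0.410 at 12 h. In the libraries of the other times, which share none with 24 h, the medians were -0.132 (control) and -0.172 (12 h) on chromosome 13, -0.167 and -0.169 on chromosome 9, and 0.171 and 0.200 on chromosome 16. Leaving out any 1 library kept them at -0.256 to -0.180, -0.180 to -0.145 and 0.137 to 0.176 at 24 h. Serpinb1a and Mylip lie on chromosome 13 and Ankdd1a, Tln2, Ctdspl and Bcl2a1d on chromosome 9, all lower in KD, while Mmp12 on chromosome 9 was higher. DNA was not measured in the data used here, and the part of these shifts in the called genes was not tested.

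**Figure D5:**
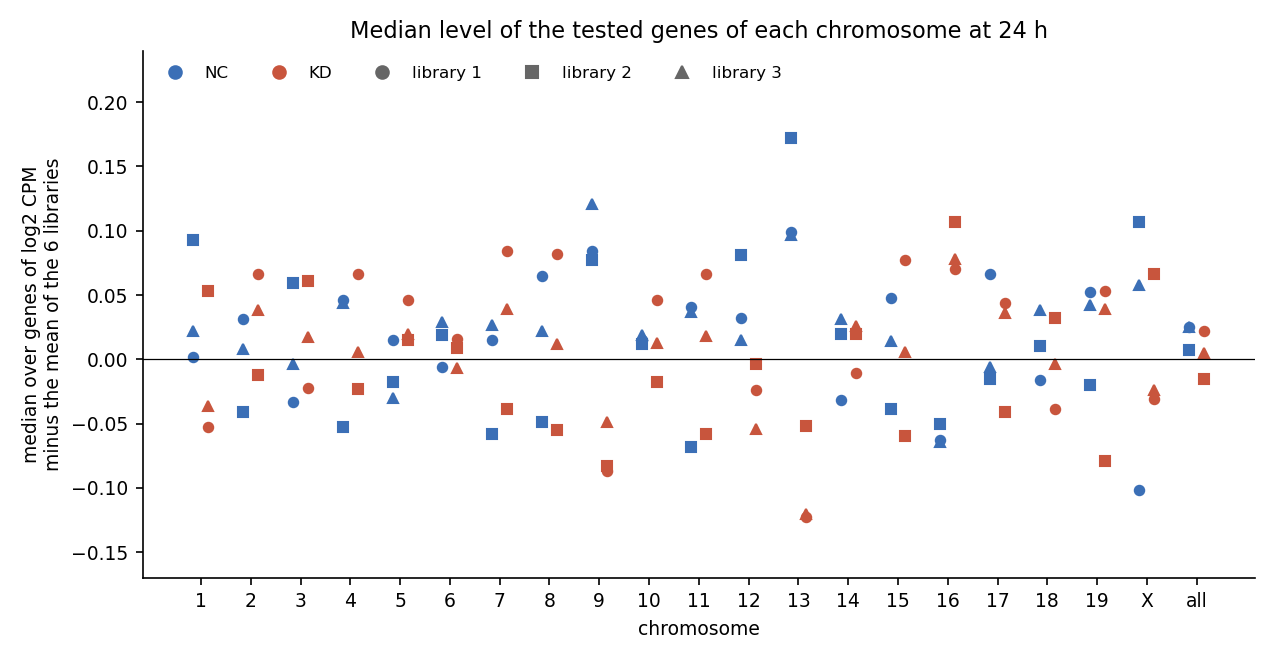
Median over the tested genes of each chromosome of log2 CPM minus the gene's mean over the 6 libraries at 24 h, 1 point per library (blue NC, red KD; circles, squares and triangles for libraries 1, 2 and 3), with all genes at the right. The 3 KD libraries lie below the 3 NC libraries on chromosomes 9 and 13 and above them on chromosome 16.

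By type, 175 of 10676 protein-coding genes (1.64%) and 11 of 538 long intergenic noncoding RNAs (2.04%) were called, the latter all lower in KD. The share of calls rose with level, from 0.875% of 5144 genes at a mean of 1 to 5 CPM over the 18 libraries to 2.06% of 1795 genes above 100 CPM. Called genes at 1 to 5 CPM had a median size of change of 2.40 on the log2 scale and those above 100 CPM one of 0.74, so small differences in weakly expressed genes were not detectable at this depth.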

How the data were processed

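RNA-seq of 6 libraries (3 NC, 3 KD) at 24 h of oxyhemoglobin was analysed, in 1 fit with the 12 libraries of the other times. The authors deposited whole-number read counts per gene, not normalized, and TPM, for 55487 genes. Per the submitters' processing notes, bcl2fastq, HISAT2 2.2.0, featureCounts and DESeq2 were used with the GRCm38 build; which annotation release was used is not stated there. Positions came from GENCODE M21, where 55227 of the IDs were found, and promoters from RefSeq. Samples were grouped by title.

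Counts were tested with edgeR 4.0.16 (quasi-likelihood, robust, TMM, filterByExpr with a minimum count of 10, 1 mean per group, 18 libraries; R 4.3.3), leaving 15996 genes with 99.65% of the counts. The interactions of line with time were contrasts of the same fit. CPM use TMM-scaled library sizes and compare 1 gene across libraries, not genes with one another. Adjusted p-values are Benjamini-Hochberg over all genes tested. The median biological coefficient of variation was 0.221. The procedure was tested on simulated counts.

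The members and gene lists (39) were chosen with earlier results of these data known. Genes were named by a rule: Bak1, the 15 largest changes in each direction without overlap at 5 CPM or more, up to 4 called members per list (or the 2 most expressed where none was), a panel of death and inflammation genes, and the interactions. Other genes, such as the beta-protocadherins, Ctdspl, Ddah1, Vnn3, Ftl1 and C1qb, were chosen after their values were seen. Within each group every pair of libraries differed beyond sampling noise (a chi-square of 8.85 to 16.4 for each degree of freedom), and all were counted separately.

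As alternatives, scaling used upper-quartile or RLE factors, and the fit was repeated with no filter, 5 CPM in 3 libraries, DESeq2 1.42.0, a replicate block, the compared groups alone, limma 3.58.1 on the deposited TPM with pseudocounts of 1 and 0.1 and a filter of mean TPM 1 or none, and each library left out. Leaving out both libraries numbered 2, and chromosome medians in genes of at least 20 CPM, were added after seeing the data.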

Additional observations from a re-analysis of the deposited data

Results flagged for a closer look

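In 5 genes the difference between the lines changed between control and 24 h by the test of the interaction itself (edgeR's quasi-likelihood test, adjusted over all genes). Aldh1l2, a mitochondrial folate enzyme, averaged 84.3 CPM in NC and 23.4 CPM in KD at control and 60.9 and 57.6 CPM at 24 h, a change in the line difference of 1.77 ± 0.24 (adjusted p = 0.00173). Trib3, a stress-induced pseudokinase, averaged 442.9 and 72.4 CPM at control and 253 and 164 CPM at 24 h, a change of 1.99 ± 0.34 (adjusted p = 0.0252). Plau, the urokinase plasminogen activator, averaged 242.5 and 121 CPM at control and 292 and 319 CPM at 24 h, a change of 1.13 ± 0.21 (adjusted p = 0.0447). Serpinb1a went the other way, by -1.75 ± 0.29 (adjusted p = 0.0186). AC147806.2 had no counts in KD at control (3.11 CPM in NC) and 18.5 and 10.5 CPM in NC and KD at 24 h; its fitted change of 6.16 (adjusted p = 0.00173) depends on the prior count and is no bound. The Plau and Trib3 interactions were each lost without any 1 of 8 of the 12 libraries (0.0646 to 0.145 and 0.0582 to 0.0829), and those of Aldh1l2 and AC147806.2 held without each. On 2 of the 3 TPM scales, however, the AC147806.2 interaction was lost (adjusted p up to 0.915, change down to 0.69).

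Between 12 h and 24 h the line difference changed in Kcnj2, an inward-rectifier potassium channel gene, by -1.40 ± 0.20 (adjusted p = 0.00742). It averaged 81.7 CPM in NC and 157 CPM in KD at 12 h and 121.9 and 88.9 CPM at 24 h. The interaction was lost without KD library 1 at 24 h (0.0607) or NC library 1 at 12 h (0.0648), and on all 3 TPM scales (0.279 to 0.35).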

How the results depend on the processing

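None of the 48 named genes called at 24 h reversed in any of 17 alternatives that tested them. In every alternative that tested them 10 were called: Nefh, Fos, Pkdcc, Tfcp2l1, Prkg2, Thbs1, Trem1, Serpinb1a, Pcdhb16 and Ankdd1a. Prkg2 was not tested on the TPM scales with a filter. Against 223 calls, RLE factors gave 227, upper-quartile factors 245, no filter 286 and the 5 CPM filter 236, while DESeq2 gave 410, the compared groups alone 119, and limma on TPM 107, 104 and 137 (pseudocount 1, 0.1, and 1 without a filter). Leaving out 1 library gave 41 to 131, and without both libraries numbered 2 there were 34. With a replicate block 1440 genes passed, 47.9% of them higher in KD, among them all 223. The numbers were not taken as pairs: deviations of same-numbered libraries correlated at 0.172, 0.382 and 0.097, each library best with its own number, and no label explains the numbering. The 5 interactions over control became 8 with upper-quartile factors, 33 without a filter, 8 at 5 CPM, 38 with DESeq2, 193 with the block and 13, 9 and 25 on TPM, and 2 to 10 with 1 library left out. The 1 interaction over 12 h became 112 with the block and 8 on TPM without a filter, and 0 or 1 with 1 library left out, where an arm of 2 libraries is assumed to vary like the rest. On TPM with a filter 1 gene passed, not Kcnj2. Causes were not tested. Depth limits the low end: a library with 0 counts allows 0.525 to 0.760 CPM, taking 3 counts as the floor.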

Other observations

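Neighbouring genes were called together in 14 pairs at 24 h, 13 of them with the same direction. The number of such pairs to be met when 1.39% of genes are called was not worked out. Of all 223 calls 66.4% were lower in KD, so a shared direction is common among them. Beyond the protocadherins and the 2 interleukin-1 genes, Arl4c (-0.82), Agap1 (-1.36) and the noncoding Gm37297 (-1.98) lie in a row on chromosome 1 and were all lower in KD, and Pts (-1.01), which makes tetrahydrobiopterin, and Bco2 (-0.93), a carotenoid oxygenase, adjoin on chromosome 9. The exception was C3ar1, the receptor for complement C3a, which was higher in KD (0.73) beside the lower Necap1 (-0.94). These pairs were chosen after their values were seen and carry no test.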
